A study of Homo sapiens with 4 samples.

Results

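Mitochondrial ribosomal protein genes were compared between invasive and poorly invasive populations of U87MG, an established human glioblastoma cell line. The genes were chosen by name: every protein-coding row whose symbol is MRPL or MRPS followed by a number, MRPL naming proteins of the large subunit and MRPS those of the small subunit. This gave 79 rows with 77 distinct symbols among the 29387 genes listed for all 4 libraries. All 77 symbols passed the filter on low counts, 48 MRPL and 29 MRPS, in a table of 14231 tested genes. The remaining rows repeat a symbol. A second MRPS17 row had 0 counts in all 4 libraries, where 3 counts, the most that a count of 0 allows, would be 0.168 to 0.217 CPM (counts per 1000000 of the library total), and an MRPL23 row on an unplaced scaffold had 1 count, in control 2.

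Polyadenylated RNA came from 2 invasive populations, titled clones and described as independently derived, and from 2 controls described as poorly invasive. U87 cells grown in DMEM with serum were put on organotypic slices of brain, in a neural stem cell medium supplied with both FGF and EGF, and left there for 1 week. Both kinds of population were then taken from the slices and grown for 3 to 5 days before RNA extraction. Controls had therefore been on slices as well, from a species that no label names. The series' design text gives each invasive population the control of its own number, so control 1 with invasive 1 is called pair 1 below, and control 2 with invasive 2 is called pair 2. Each population is represented by 1 library.

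The libraries held 13829871 to 17817756 counts, and in each pair the invasive library was the shallower one (15466900 against 17817756 and 13829871 against 15444104 counts). Genes of mesenchymal glioblastoma lines were abundant, with VIM at 7340 to 8490 and CD44 at 1550 to 2160 CPM. The glial markers GFAP (2 to 4 counts) and SOX2 (0 to 1 count) were nearly absent in every library. Of 14 markers of other brain cells, 4 (MOG, AQP4, P2RY12 and CLDN5) were at 0 in every library. The 14 together made 27.5 CPM in control 1 and 26.6 in invasive 1, and 22.0 in control 2 and 29.9 in invasive 2, most of it from GAD1 and SYT1, and their part in the results was not tested.

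Mitochondria carry a small genome whose messenger RNAs are translated inside the organelle by a ribosome of their own. The ribosomal RNAs of this mitoribosome come from the mitochondrial genome, while its proteins are encoded in the nucleus, made in the cytosol and imported. Its small subunit binds and decodes the messenger RNA, and its large subunit forms peptide bonds and holds the exit tunnel, which faces the inner membrane. The products are core subunits of the respiratory chain and of ATP synthase. Part of the mitoribosomal proteins have bacterial counterparts and the rest are found only in mitochondria.

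The summed level of these genes was about 10% lower in the invasive population of each pair. In CPM, the 79 rows summed to 3987 for control 1, 3582 for invasive 1, 3871 for control 2 and 3482 for invasive 2. Both invasive libraries lay below both controls, with a control mean of 3929 ± 81.9 and an invasive mean of 3532 ± 71.2 CPM (SD, n = 2 each). The invasive library was 10.2% lower than its control in pair 1 and 10.1% lower in pair 2. In bulk RNA such a difference cannot be split into fewer cells of a type and less RNA per cell.

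The difference was spread over many genes and was small in each. The log2 fold change, invasive over control with the pair as a block, was below 0 for 63 of the 77 tested genes, with a median of −0.18 (a level 11.5% lower) and a range from −0.46 to 0.35. The median over all 14231 tested genes was 0.01. Taking the pairs singly, the median log2 difference of the mitoribosomal genes was −0.17 in pair 1 and −0.19 in pair 2. In both pairs, 50 of the 77 genes were lower (64.9%), against 31.9% of all tested genes. Another 6 (MRPL36, MRPL41, MRPL53, MRPL55, MRPL57 and MRPS6) were higher in both pairs, against 33.4% of all tested genes. The other 21 went in opposite directions, as did 4938 of the 14231 tested genes. Both invasive CPM values lay below both control values for 44 genes, a pattern seen in 19.7% of all tested genes, and above both for 4 (MRPL36, MRPL53, MRPL54 and MRPL55), against 23.7%.

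No single mitoribosomal gene passed the test. At an adjusted p under 0.05 in edgeR's quasi-likelihood test, 34 tested genes were higher (0.239%) and 5 were lower (0.0351%), none of them an MRPL or MRPS gene, and DESeq2 with the pair also called 0 of these genes. The count of 39 genes over the whole table was 170 without control 1, 27 without invasive 1, 4 without control 2, 8 without invasive 2 and 2 with no replicate block. At an unadjusted p under 0.05 edgeR gave 20 mitoribosomal genes lower, where 8.41% of all tested genes were, and 1 higher, MRPL41, where 9.82% were. The median size of the log2 fold change in the 77 genes, sign left out, was 0.21. Beside it, the median size of the difference was 0.10 between the controls and 0.12 between the invasive libraries. Over all tested genes the same values were 0.19, 0.20 and 0.21. For 30 of the 77 genes (39%) the differences in pair 1 and pair 2 had the same sign and each was larger than both within-group differences. These are the control-to-control and the invasive-to-invasive difference. The same held for 19.7% of all tested genes.

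**Figure D1:**
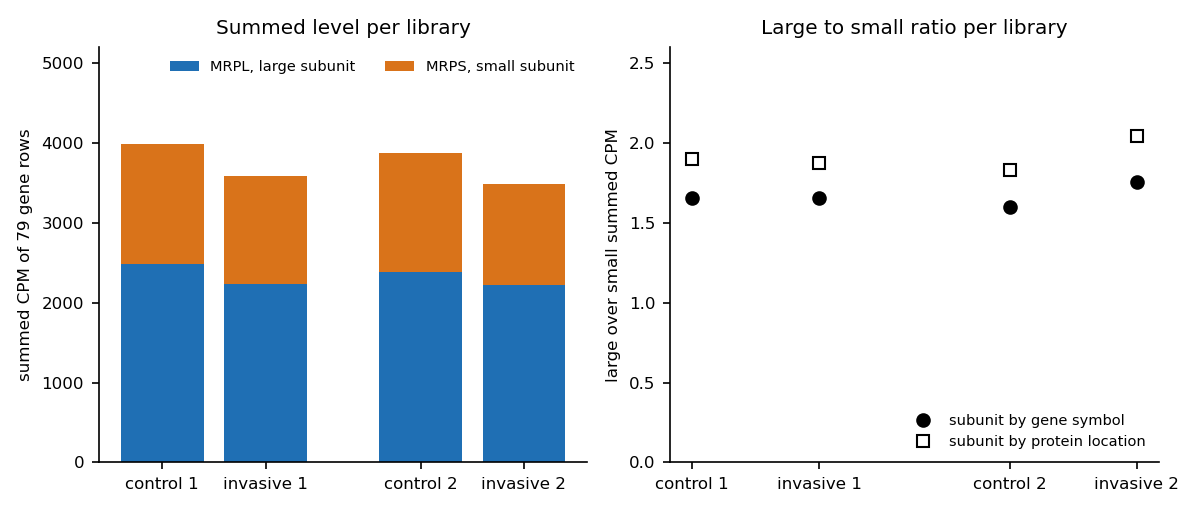
Left, the summed level in CPM (vertical axis, from 0) of MRPL and MRPS rows in each library, stacked. Each invasive bar is lower than the control beside it, 3582 against 3987 and 3482 against 3871 CPM. Right, the large over small ratio of those sums in each library, with subunits taken from gene symbols (filled circles) or from where the protein sits (open squares); invasive 2 has the highest value in both.

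The summed levels of both subunits were lower in each pair, by like amounts in pair 1 and by unequal amounts in pair 2. MRPL genes summed to 2486 CPM in control 1 and 2232 in invasive 1, and 2382 in control 2 and 2219 in invasive 2, an invasive over control ratio of 0.898 in pair 1 and 0.932 in pair 2. MRPS genes summed to 1501, 1351, 1490 and 1263 CPM in the same order, with ratios of 0.9 and 0.848. The large over small ratio was therefore nearly equal in control 1 (1.656) and invasive 1 (1.652), and was higher in invasive 2 (1.757) than in control 2 (1.599). Placing MRPS18A and MRPS30 with the large subunit, where their proteins are found, and leaving out MRPS36 gave 1.896, 1.876, 1.833 and 2.045. With 1 library per population, the higher ratio of invasive 2 was not tested.

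Gene by gene, the median log2 fold change was −0.14 for the 48 MRPL genes and −0.22 for the 29 MRPS genes. Of the MRPL genes 29 were lower in both pairs (60.4%) and 5 higher, and of the MRPS genes 21 were lower (72.4%) and 1, MRPS6, was higher. The difference between the subunit medians, 0.09, became 0.03 without control 2 and 0.04 with offsets for GC content and length (an alternative chosen after seeing the data). Within the small subunit as built, the 10 proteins classed as mitochondrial had a median of −0.25. All 10 fold changes were below 0 and 9 genes were lower in both pairs. The 16 small subunit proteins with bacterial counterparts had a median of −0.20, with 13 below 0. In the large subunit the order was the other way, −0.11 for the 20 classed as mitochondrial and −0.17 for the 30 with bacterial counterparts. The mitochondrial class held MRPS18B in the small and MRPS18A in the large subunit, although both are paralogs of bacterial S18. Over both subunits the classes had the same median, −0.18 for each, and no difference between classes was tested.

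**Figure D2:**
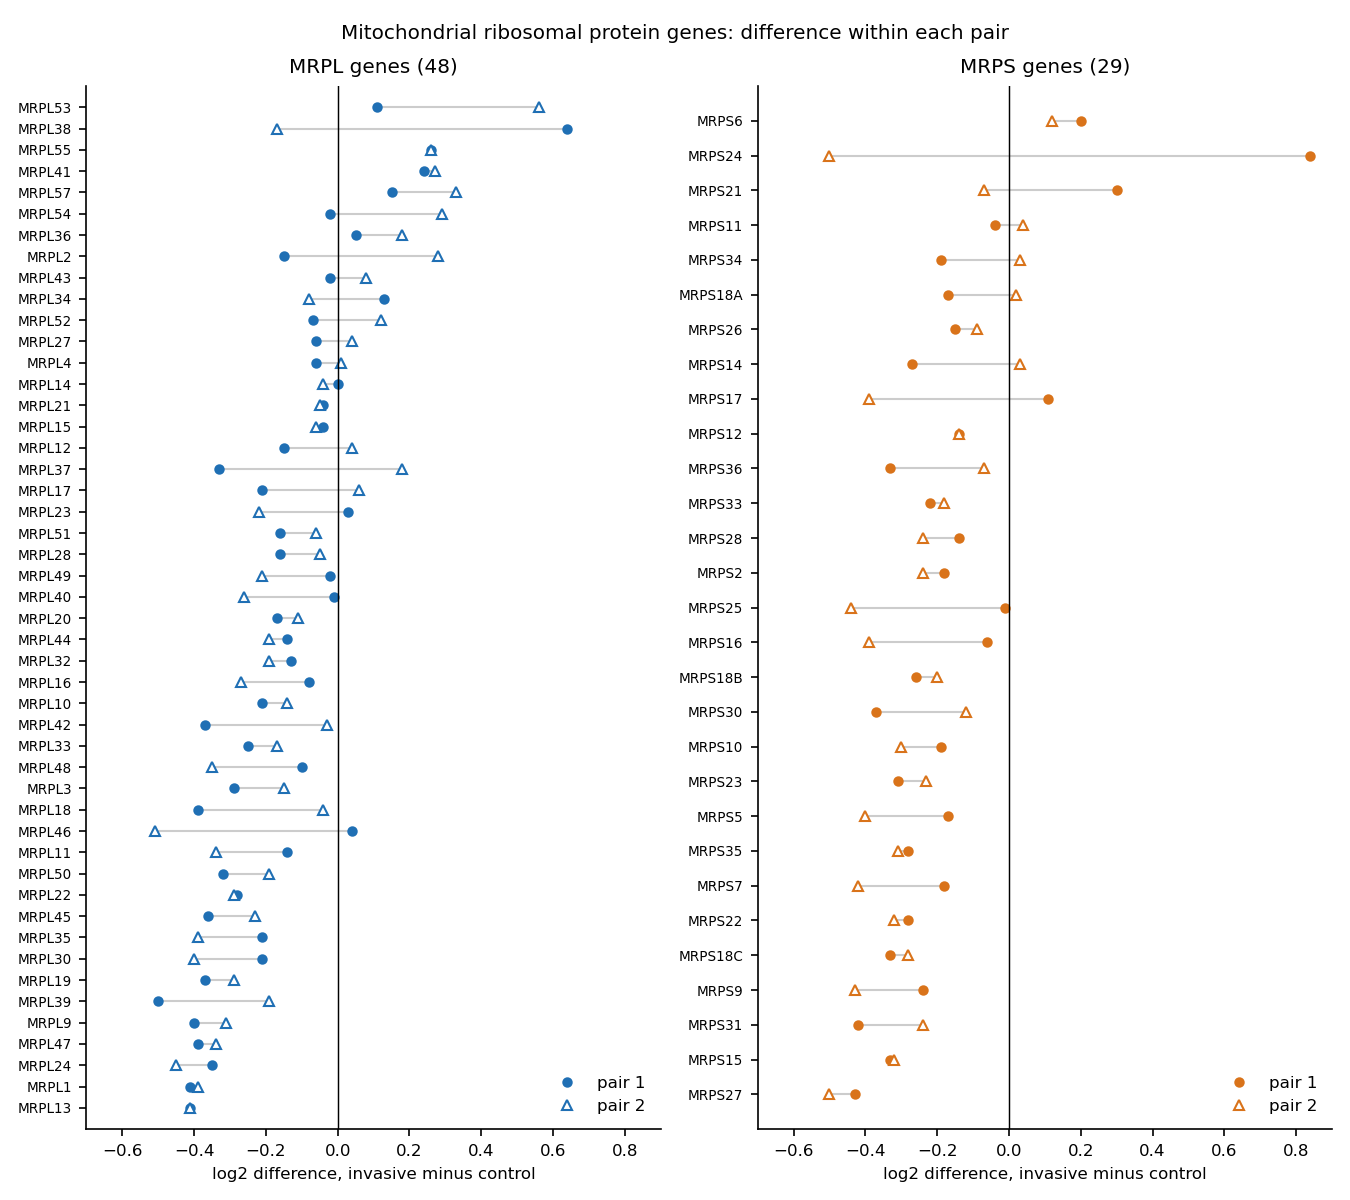
The log2 difference, invasive minus control, of each tested gene in pair 1 (filled circles) and pair 2 (open triangles), MRPL genes left and MRPS genes right, each sorted by the fold change of the paired fit with the lowest at the bottom. Most points lie left of the line at 0, and the widest gaps between the pairs are those of MRPS24 (0.84 and −0.50) and MRPL38 (0.64 and −0.17), which had few counts.

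Promoters were looked at because many of these genes differed in one direction together. RefSeq windows of 300 bases, 250 before and 50 after a start (GRCh38.p14), matched 68 of the 77 symbols with 84 windows. The ETS family core CCGGAAG, the letters that GABPA and its relatives bind, was searched on both strands and was in 32 of the 84 windows (38.1%), against 16.2% of 14047 windows of tested protein-coding genes and 10.3% of all 35116 windows. The YY1 letters AANATGGCG were in 21.4% of the mitoribosomal windows, against 5.92% and 3.19%. The motif of NRF1 was in 11.9%, against 9.67% and 5.78%, the GC box GGGCGG in 59.5%, against 65.1% and 45%, and the TATA box TATAAA in 3.57%, against 6.38% and 11.5%. Genes with and without the ETS core both leaned lower: the 29 with it had a median log2 fold change of −0.14 and the 39 without it −0.21. By windows, the core was in 43.4% of 53 windows of genes lower in both pairs and in 29% of 31 windows of the other mitoribosomal genes. These splits point in opposite ways, and neither was tested.

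The 6 stretches printed here show promoters with and without that core at the low and the high end of the fold changes. Each is the 120 bases before the RefSeq start, 5′ to 3′ on the gene's strand, in lower case with the ETS core, on either strand, in capitals. They were picked after the values were seen, from 16 genes with a single window, a mean of at least 10 CPM, at most 20 of the bases inside the gene as the deposited tables place it, and no head-to-head neighbour that the stretch would reach.
MRPL19 (chr2:75646663-75646782, plus strand): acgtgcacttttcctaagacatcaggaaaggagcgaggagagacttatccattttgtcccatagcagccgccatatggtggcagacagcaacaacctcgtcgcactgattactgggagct
MRPS31 (chr13:40771191-40771310, minus strand): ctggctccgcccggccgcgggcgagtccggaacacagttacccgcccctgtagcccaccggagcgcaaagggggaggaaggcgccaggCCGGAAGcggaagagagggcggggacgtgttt
MRPS23 (chr17:57850045-57850164, minus strand): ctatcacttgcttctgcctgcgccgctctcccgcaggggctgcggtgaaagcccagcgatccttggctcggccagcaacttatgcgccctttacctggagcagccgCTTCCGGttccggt
MRPS18A (chr6:43687792-43687911, minus strand): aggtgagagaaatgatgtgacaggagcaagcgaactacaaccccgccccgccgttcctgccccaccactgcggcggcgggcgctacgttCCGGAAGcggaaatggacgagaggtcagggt
MRPL54 (chr19:3762562-3762681, plus strand): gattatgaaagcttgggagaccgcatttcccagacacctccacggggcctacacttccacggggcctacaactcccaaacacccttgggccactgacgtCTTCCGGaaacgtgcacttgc
MRPL55 (chr1:228109300-228109419, minus strand): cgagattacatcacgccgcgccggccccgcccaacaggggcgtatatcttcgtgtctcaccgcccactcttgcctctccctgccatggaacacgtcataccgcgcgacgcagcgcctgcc
MRPL19 (log2 fold change −0.33) and MRPL55 (0.26) were the lowest and the highest of the 16 and have no core in these 120 bases. MRPS31 (−0.33), MRPS23 (−0.27), MRPS18A (−0.08) and MRPL54 (0.13) each have 1 core, between 14 and 32 bases before the start. The ends were set by the choice, so the set shows what such promoters look like and compares nothing. A match is a run of letters and not a measured binding site.

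Among small subunit genes the lowest fold change was that of MRPS27 (ENSG00000113048, chromosome 5, 72219409 to 72320646 on the minus strand, GRCh38), a pentatricopeptide repeat protein found only in mitochondria. Its level was 135 CPM in control 1 and 103 in invasive 1, and 124 in control 2 and 87.9 in invasive 2. Both invasive values lay below both controls, and the log2 fold change was −0.46 ± 0.09 (SE; edgeR unadjusted p = 0.00203, adjusted p = 0.104). With no scaling beyond the library total the value was −0.44 with an adjusted p of 0.0394, the only mitoribosomal call under that setting.

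MRPS15, the counterpart of bacterial S15, which binds ribosomal RNA early in assembly, was at 95.0, 77.1, 95.6 and 76.5 CPM (control 1, invasive 1, control 2, invasive 2, the order used from here on). The controls were nearly equal and so were the invasive libraries, with no overlap between the groups (log2 fold change −0.33 ± 0.09, edgeR adjusted p = 0.159). MRPS9, a protein of the small subunit head, was at 33.8, 29.4, 31.9 and 23.7 CPM (−0.33 ± 0.12, adjusted p = 0.23). MRPS31, a mitochondrial protein whose promoter holds the ETS core, was at 20.8, 15.9, 20.3 and 17.2 CPM (−0.33 ± 0.14, adjusted p = 0.283). The groups did not overlap in either gene.

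MRPS5, MRPS7 and MRPS12, chosen by role, were each lower in both pairs. MRPS5, at the messenger RNA entry, was at 71.1, 64.5, 67.9 and 51.5 CPM (−0.29 ± 0.11, edgeR adjusted p = 0.234), and MRPS7, of the head, at 77.6, 70.3, 80.3 and 60.2 CPM (−0.30 ± 0.11, adjusted p = 0.225). In both genes the difference was larger in pair 2, −0.40 and −0.42, than in pair 1, −0.17 and −0.18. MRPS12, whose bacterial counterpart S12 guards the accuracy of decoding, was at 53.3, 49.5, 49.9 and 45.3 CPM and differed by −0.14 in each pair.

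MRPS18A, MRPS18B and MRPS18C are 3 paralogs of bacterial S18 that occupy different places. MRPS18C was at 42.1, 34.3, 48.0 and 39.6 CPM (log2 fold change −0.31 ± 0.11, edgeR adjusted p = 0.224), and MRPS18B at 48.0, 40.9, 43.9 and 38.4 CPM (−0.23 ± 0.11, adjusted p = 0.312). Both belong to the small subunit and both were lower in each pair. MRPS18A, which sits in the large subunit, was at 51.9, 47.1, 49.0 and 49.8 CPM (−0.08 ± 0.11, adjusted p = 0.747), with invasive 2 inside the control range. The differences among the paralogs were not tested.

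Names and places also part for MRPS30 and MRPS36. MRPS30, a protein of the large subunit in spite of its name, was at 51.6, 40.9, 53.2 and 49.1 CPM (−0.24 ± 0.12). MRPS36, now assigned to the oxoglutarate dehydrogenase complex and not to the mitoribosome, was at 31.8, 25.9, 32.1 and 30.7 CPM (−0.20 ± 0.13). Both were lower in each pair, mostly in pair 1.

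At the top of the MRPS list, MRPS6, the counterpart of bacterial S6, was at 82.8 CPM in control 1 and 97.2 in invasive 1, and 65.3 in control 2 and 71.0 in invasive 2. It was higher in each pair (log2 fold change 0.16 ± 0.09, edgeR adjusted p = 0.418), but the groups overlapped, since control 1 lay above invasive 2. The value was −0.09 without invasive 1 and −0.01 without control 2. MRPS21 (0.12), MRPS11 (0.00) and MRPS34 (−0.08) stood next to it and each went in opposite directions in the pairs. With 1 library left out these 3 took both signs, from −0.04 to 0.27 in MRPS21, −0.07 to 0.06 in MRPS11 and −0.22 to 0.05 in MRPS34.

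In the large subunit the lowest fold change was that of MRPL13, the counterpart of bacterial L13, an early-binding protein on the solvent side. It was at 62.6 CPM in control 1 and 48.1 in invasive 1, and 63.4 in control 2 and 47.8 in invasive 2. The libraries of each group were nearly equal, the groups did not overlap, and the log2 difference was −0.41 in each pair (−0.41 ± 0.10, edgeR adjusted p = 0.131). MRPL1, whose bacterial counterpart forms the L1 stalk by the exit site, was at 23.0, 17.7, 21.6 and 16.6 CPM (−0.40 ± 0.13, adjusted p = 0.207). MRPL9, the counterpart of bacterial L9, was at 64.4, 49.9, 53.8 and 43.5 CPM (−0.36 ± 0.10, adjusted p = 0.17). The groups did not overlap in these genes either.

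The tunnel exit is where the new chain meets the inner membrane, and the 6 genes of it named here had fold changes below 0, as did 81.8% of the 77 genes. MRPL24 was at 64.2 CPM in control 1 and 51.4 in invasive 1, and 47.3 in control 2 and 34.7 in invasive 2 (log2 fold change −0.40 ± 0.11, edgeR adjusted p = 0.148). Pair 1 was higher than pair 2 throughout, so that invasive 1 lay above control 2 while each invasive library lay below its own control. MRPL47 was at 57.1, 44.5, 51.2 and 40.6 CPM (−0.37 ± 0.11, adjusted p = 0.165), with no overlap. MRPL45, which anchors the mitoribosome to the membrane, was at 46.1, 36.7, 46.5 and 39.8 CPM (−0.30 ± 0.11, adjusted p = 0.239), and MRPL22 at 32.7, 27.5, 32.6 and 26.7 CPM (−0.29 ± 0.11, adjusted p = 0.259). Neither overlapped between the groups. MRPL44 (−0.16 ± 0.11) was lower in both pairs, and MRPL23 (−0.09 ± 0.19, 8.08 to 10.7 CPM) was not, with a value of 0.10 without control 2.

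MRPL10, MRPL11 and MRPL12 belong to or hold the stalk, which recruits translation factors. MRPL11 was at 71.0, 66.1, 76.0 and 60.2 CPM (−0.24 ± 0.10, edgeR adjusted p = 0.292) and MRPL10 at 47.0, 41.6, 44.9 and 40.8 CPM (−0.18 ± 0.11, adjusted p = 0.43), both lower in each pair. MRPL12 was at 15.5, 14.4, 17.8 and 18.3 CPM (−0.06 ± 0.15), with opposite directions in the pairs and values of 0.11 without invasive 1 and 0.04 without control 2. Of the bases in its exons, 68.2% are shared with another annotated gene on the same strand.

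Of 4 proteins near the peptidyl transferase centre chosen by role, MRPL3 was at 151, 126, 147 and 133 CPM (−0.22 ± 0.10, edgeR adjusted p = 0.296), lower in both pairs with no overlap. MRPL4 was at 65.9, 64.8, 61.3 and 62.0 CPM (−0.02 ± 0.10), MRPL27 at 45.0, 44.1, 40.9 and 42.1 CPM (−0.01 ± 0.11), and MRPL2 at 17.8, 16.4, 15.9 and 19.4 CPM (0.06 ± 0.16). These 3 differed in opposite directions in the pairs and had no stable sign. MRPL2 was at −0.03 without control 2 and −0.06 without invasive 2.

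A few large subunit genes stood above their controls. MRPL41, a protein found only in mitochondria, was at 40.1 CPM in control 1 and 48.4 in invasive 1, and 51.9 in control 2 and 62.8 in invasive 2, higher by 0.24 in pair 1 and 0.27 in pair 2 on the log2 scale (0.26 ± 0.10, edgeR adjusted p = 0.262). Pair 2 was higher than pair 1 throughout, so invasive 1 lay below control 2. MRPL55, the counterpart of bacterial L31, was at 18.1, 22.1, 16.3 and 19.5 CPM and higher by 0.26 in each pair (0.26 ± 0.13, adjusted p = 0.355), with no overlap. MRPL57 was at 13.5, 15.3, 15.9 and 20.1 CPM (0.24 ± 0.15, adjusted p = 0.442), higher in each pair but with invasive 1 below control 2. MRPL54 (0.13 ± 0.14) and MRPL36, the counterpart of bacterial L36 (0.11 ± 0.12), followed. With the offsets for GC content and length, MRPL41 was at −0.04, MRPL36 at −0.07 and MRPL54 at 0.00.

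By level per length (mean CPM per kilobase of the longest protein-coding transcript), MRPL37 led the large subunit with 110, ahead of MRPL51 with 99.7 and MRPL33 with 92.6. MRPS15 (85.5) and MRPS6 (79.9) led the small subunit, followed by MRPS16 and MRPS2, both at 45.9. MRPS18A, named as a small subunit gene but sitting in the large subunit, was at 46.6. Which transcript the cells used was not determined, so the order depends on the annotated lengths. These were 518 bases in MRPL33 and 15582 in MRPL42, for example, which put MRPL42 at 2.31. MRPL51 was at 134, 123, 120 and 115 CPM (log2 fold change −0.11 ± 0.09) and MRPL33 at 50.2, 43.1, 52.1 and 46.4 CPM (−0.21 ± 0.11), both lower in each pair. MRPL37 was at 191 CPM in control 1 and 155 in invasive 1, and 163 in control 2 and 185 in invasive 2. It was thus lower in pair 1 and higher in pair 2, with a paired value of −0.08 ± 0.14 that described neither.

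Shared annotation limited some genes. In 7 of the 77, over 20% of exon bases are also exon of another gene on the same strand, and the 5 genes with the lowest level (MRPL38, MRPL53, MRPS24, MRPS17 and MRPS28, 1.08 to 6.35 CPM) are all among these 7, with MRPL12 and MRPL33. In MRPL53, for example, 45.2% of exon bases are shared with CCDC142, and in MRPL33 21.1% with BABAM2. Values of these 7 genes are uncertain, because no source used here says how reads in shared exons were assigned. Exons shared with a gene on the opposite strand are not in this count and would add to it if counting ignored strand. Such sharing is 47.0% in MRPS18A, 40.2% in MRPS18C, 36.9% in MRPL43, 33.2% in MRPL9 and 31.3% in MRPL51. At such low counts the errors were wide, with log2 fold changes of 0.35 ± 0.35 in MRPL53, 0.33 ± 0.37 in MRPL38 and 0.14 ± 0.41 in MRPS24. Leaving out the 7 gave a large subunit median of −0.15. Pseudogenes named after these genes took few reads, with 110 counts in 14 rows beside 234393 counts in the genes themselves.

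**Figure D3:**
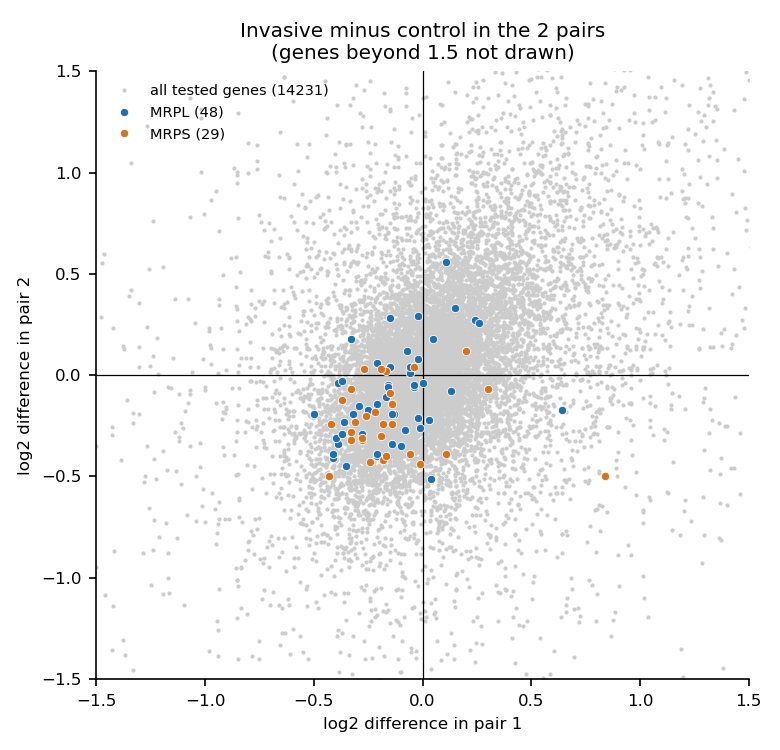
Log2 differences, invasive minus control, in pair 1 (horizontal) and pair 2 (vertical) for all 14231 tested genes (grey; those beyond 1.5 are not drawn) and for MRPL (blue) and MRPS (orange) genes. The mitoribosomal genes gather at the lower left, where both differences are below 0 for 50 of 77, inside the spread of all genes.

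The order of the genes by size of difference was shared only in part between the pairs. Across the 77 genes the pair 1 and pair 2 differences had a Spearman correlation of 0.32, against 0.4 across all tested genes. It was 0.43 in MRPL genes (n = 48) and 0.04 in MRPS genes (n = 29). The genes of a library share its depth and handling and are not independent, so no p is given.

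Fold change moved with the GC content of the transcript. The Spearman correlation between fold change and GC content was 0.60 across the 77 genes, 0.68 in MRPL and 0.40 in MRPS genes, and 0.23 across the 14095 tested genes with a GC value. By pair it was 0.58 in pair 1 and 0.35 in pair 2. The 39 genes at or below the median GC content of 48.9% had a median log2 fold change of −0.22, and 32 of them were lower in both pairs (82.1%). The 38 above it had a median of −0.09, with 18 lower in both pairs (47.4%). Tested protein-coding genes split at the same GC content had medians of −0.05 and 0.06, with 40.9% and 24.9% lower in both pairs, so the mitoribosomal genes had the lower median on both sides. With offsets for GC content and length, the correlation in the 77 genes was 0.22, with 0.42 in MRPL and −0.21 in MRPS genes. The median was −0.21 beside −0.04 over all tested genes. In both pairs 58 were lower (75.3%), against 38.6% of all tested genes under the same offsets. The subunit medians were then −0.19 and −0.23, and edgeR called no mitoribosomal gene.

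**Figure D4:**
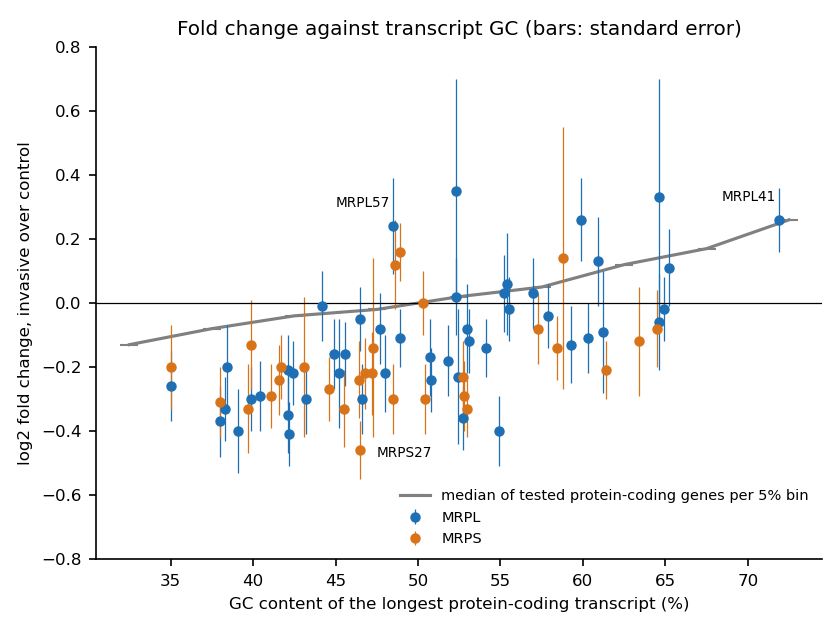
Log2 fold change with its standard error (vertical) against transcript GC content in percent (horizontal) for MRPL (blue) and MRPS (orange) genes, with the median of tested protein-coding genes in each 5% bin in grey. The grey medians go from −0.13 in the bin from 30 to 35% to 0.26 in the bin from 70 to 75%, and most mitoribosomal genes lie below the grey line.

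Other genes of mitochondrial translation and transcription leaned the same way by smaller or like amounts, and none in these lists passed edgeR's adjusted threshold. Of all tested genes, 31.9% were lower and 33.4% higher in both pairs. The 6 mitoribosomal proteins with other names had a median of −0.11, with 4 lower and 1 higher in both pairs. Among them PTCD3, a small subunit protein, was at 102, 89.0, 97.3 and 74.5 CPM (−0.31 ± 0.10). DAP3, also of the small subunit, was at −0.28 ± 0.10, CHCHD1 at −0.05 ± 0.11 and AURKAIP1 at 0.07 ± 0.09. The 20 assembly factors had a median of −0.10, with 13 lower and 2 higher in both pairs. At their ends were FASTKD2, an RNA-binding protein of large subunit assembly (−0.42 ± 0.11), and TFB1M, the methyltransferase of the small ribosomal RNA (−0.38 ± 0.13), against the GTPases MTG1 (0.14 ± 0.26) and MTG2 (0.11 ± 0.11).

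Translation factors were listed together with related genes such as LRPPRC, SLIRP, OXA1L and MTFMT. These 16 genes had a median of −0.15, with 11 lower and 1 higher in both pairs. MRRF, the ribosome recycling factor, was at 55.4, 48.3, 60.0 and 40.1 CPM (−0.41 ± 0.12), and MTIF2, the initiation factor, at 84.9, 67.2, 81.5 and 61.2 CPM (−0.39 ± 0.09, edgeR adjusted p = 0.13). Neither overlapped between the groups, while MTFMT (0.04 ± 0.15) and C12orf65 (0.01 ± 0.14) were highest in that list. The 20 genes that charge mitochondrial transfer RNAs had a median of −0.15, with 13 lower and 2 higher, from MARS2 (−0.45 ± 0.16) and NARS2 (−0.40 ± 0.20) to GATC (0.03 ± 0.10) and VARS2 (0.11 ± 0.12). The 11 genes of mitochondrial transcription and its regulators had a median of −0.18, with 8 lower and 2 higher. TFAM, which packages and transcribes the mitochondrial genome, was at 66.6, 55.3, 75.0 and 47.9 CPM (−0.47 ± 0.12, edgeR adjusted p = 0.137). The coactivator PPARGC1A was at 8.47, 12.0, 7.71 and 9.76 CPM (0.41 ± 0.19, edgeR adjusted p = 0.307). Next to them in that list stood MYC at the low end (−0.39 ± 0.10) and POLRMT at the high end (0.05 ± 0.10).

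**Figure D5:**
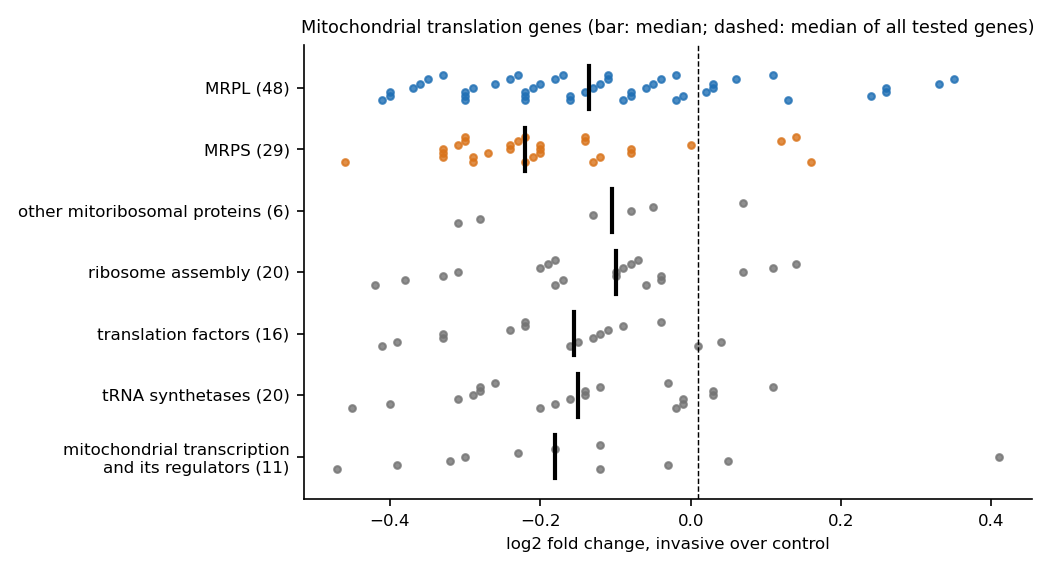
Log2 fold change (horizontal) of each tested gene, 1 point a gene, in the MRPL and MRPS genes and in 5 further lists. These lists hold genes of mitochondrial translation, and of mitochondrial transcription and its regulators. The number of genes is in brackets. Black bars are medians, from −0.22 in MRPS genes to −0.10 in assembly factors, all left of the dashed line, the median of all tested genes (0.01).

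Genes whose products the mitoribosome makes, or that work beside them, had medians nearer 0. The 13 proteins encoded in the mitochondrial genome, which it translates, had a median of 0.09, with 0 lower and 6 higher in both pairs. The 78 nuclear subunits of oxidative phosphorylation had a median of −0.04, with 31 lower and 14 higher (39.7% lower). Cytosolic ribosomal proteins (82 genes) had a median of −0.20, close to that of the mitoribosomal genes, and 74 were lower in both pairs (90.2%). The differences between these lists were not tested.

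Several mitoribosomal genes start back to back with another gene. In the GENCODE annotation 19 of the 77 have a protein-coding partner on the other strand whose start lies within 1000 bases, forming 18 pairs of genes, 17 of them with both genes tested. Both fold changes were below 0 in 10 of these, MRPL46 with MRPS11 included, and above 0 in 2, where 81.8% of the 77 genes and 49.2% of all tested genes were below 0 singly. MRPL47 (−0.37) and its partner NDUFB5, a complex I subunit (−0.26), were both lower in each pair of libraries, while MRPL57 (0.24) and its partner SKA3, a kinetochore protein (−0.21), differed in direction. The pair MRPL46 and MRPS11 joins both subunits: MRPL46 was at 10.7, 11.2, 11.5 and 8.10 CPM (−0.23 ± 0.21), MRPS11 at 59.5, 59.0, 55.0 and 56.8 CPM (0.00 ± 0.10). These examples were chosen after their values were seen.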

How the data were processed

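Of the 4 U87MG libraries, each a separate population, 2 were control and 2 invasive. With the pair as a block, p-values rest on how far the 2 pair differences disagree and on spread borrowed from all genes. The deposited tables give raw read counts per gene, and tables of the authors' normalized values (unit not stated, taken as a score) cover 32100 genes in pair 1 and 10252 in pair 2, with 72 of the 77 genes. The authors' tools were TopHat2 2.0.12, Bowtie, HTSeq, DESeq2 and bcl2fastq 1.8.4 on GRCh38, per the submitters' processing notes. Libraries were stranded, per the labels' protocols, but no source used here says whether counting used strand.

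The mitoribosomal genes, the gene lists and the rule for named genes were chosen with earlier results of these data known. Named genes are the 5 highest and 5 lowest MRPL and the 4 highest and 4 lowest MRPS fold changes at a mean of at least 10 CPM, the 3 with the highest level per length in each subunit, genes taken by role, genes not tested, and the 2 highest and 2 lowest of each list; others named were picked after their values were seen.

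Counts were tested with edgeR 4.0.16 in R 4.3.3 (two-sided quasi-likelihood test, TMM factors, pair as block, Benjamini-Hochberg adjustment over 14231 genes at 0.05). Genes entered with filterByExpr (minimum count 10, minimum total 15). The fit had 1 residual degree of freedom and borrowed 5.45 from all genes. The SE is the fold change over the root of F. Pair differences are log2 CPM with a prior count of 2. The design text gives the pairing; deviations from the group means correlated at 0.283 within a pair. Chi-square per degree of freedom between libraries of a group was 31.5 (control) and 19.6 (invasive), so none were duplicates. The 3 count floors cover counting error only. DESeq2 1.42.0, other scaling, no filter, no block, each library left out and the authors' values (pseudocount 1) were tried. Transcript length, GC content, exon overlap and neighbours came from GENCODE v29 (GRCh38), promoters from RefSeq (GRCh38.p14). The scripts were tested on simulated counts.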

Additional observations from a re-analysis of the deposited data

Results flagged for a closer look

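Of the 40 named genes, 11 went one way in pair 1 and the other way in pair 2, as did 4938 of all 14231 tested genes. With 1 library per population these differences between the pairs were not tested. The log2 values, invasive minus control, for pair 1 and then pair 2 were −0.33 and 0.18 in MRPL37, −0.15 and 0.28 in MRPL2, 0.30 and −0.07 in MRPS21, and −0.02 and 0.29 in MRPL54. MRPL37, MRPL2 and MRPL54 stood higher in pair 2, MRPS21 in pair 1. In MRPL23 they were 0.03 and −0.22, in MRPS34 −0.19 and 0.03, in MRPL12 −0.15 and 0.04, and in MRPS18A −0.17 and 0.02. The smallest gaps were those of MRPL27 (−0.06 and 0.04), MRPS11 (−0.04 and 0.04) and MRPL4 (−0.06 and 0.01).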

How the results depend on the processing

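Where control and invasive libraries were fitted with no replicate block, edgeR called 2 genes in place of 39, and 0 mitoribosomal genes in both fits; the pairing changed no call of a mitoribosomal gene. The 39 genes became 89 with RLE size factors, 459 with no scaling beyond the library total, 1453 with no filter on low counts, 171 in DESeq2 and 19 with GC content and length offsets (replicate block kept; an alternative chosen after seeing the data), and 4 to 170 with 1 library left out. Those single-library fits had no block. Mitoribosomal calls were 1 with no scaling, 7 with no filter and 0 otherwise. The large subunit median of −0.14 was −0.12 with no scaling, −0.16 with no filter, −0.16 in the authors' values, −0.19 with the offsets, −0.15 without genes of overlapping annotation (also chosen after seeing the data), and −0.18 to −0.14 with 1 library left out. The large minus small difference of 0.09 was 0.04 with the offsets and 0.03 to 0.10 with 1 library left out. The summed CPM ratio of 0.899 was 0.888 with TMM, 0.887 with RLE, 0.897 in the authors' values and 0.886 to 0.912 with 1 library left out. The small subunit median of −0.22 ran from −0.25 with no filter to −0.19 without invasive 2. The 50 genes lower in both pairs were 47 with no scaling, 57 with no filter and 58 with the offsets. Of 440 alternative values of 40 named genes, 408 kept direction and, where a p was computed, side of the threshold, 7 passed it and 25 turned sign. The authors' values carry no p, so for them only direction was compared. With 1 library left out, values ran from −0.24 to 0.11 in MRPL12, −0.06 to 0.17 in MRPL2, −0.29 to 0.10 in MRPL23, −0.10 to 0.07 in MRPL27, −0.21 to 0.05 in MRPL37, −0.09 to 0.04 in MRPL4, −0.07 to 0.06 in MRPS11, −0.04 to 0.27 in MRPS21, −0.22 to 0.05 in MRPS34 and −0.09 to 0.37 in MRPS6. With no scaling MRPL27 was at 0.01 and MRPS11 at 0.02. In the authors' values MRPL27 and MRPL4 were at 0.00 and MRPS11 at 0.02. With the offsets MRPL36 was at −0.07, MRPL41 at −0.04 and MRPL54 at 0.00. The cause was not tested. Depth limits the 5 genes of lowest level most.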
